A study of Mus musculus with 6 samples.

Results

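The 34 genes described here encode integrin chains, tetraspanins and other adhesion molecules, and cytoplasmic proteins that activate integrins or link them to actin. They were chosen by symbol, and all 34 were listed among the 23183 genes of each library. Integrins are heterodimers of an alpha and a beta chain that hold leukocytes to vessel walls, to matrix and to other cells. They switch from a bent to an extended state when talin and kindlin bind the beta chain tail from inside the cell. Tetraspanins are small membrane proteins with multiple membrane spans that gather integrins and other receptors into patches. In the lung, group 2 innate lymphoid cells (ILC2), lymphocytes that lack rearranged antigen receptors and make type 2 cytokines, live in the tissue itself, and adhesion receptors help to fix where they stay.

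RNA was sequenced from primary lung ILC2 of WT mice in 2 groups of 3 libraries. Cells of the DTA-1 group were cultured with DTA-1, an agonist antibody against GITR, a costimulatory receptor of the TNF receptor family. Cells of the isotype group were cultured with an IgG2b control antibody. Culture lasted 24 h in both groups, and all cells also received IL-2, IL-7 and IL-33 (10 ng/ml), so there was no group without cytokine activation. The labels give no age, sex, strain or sorting gate for the mice and cells, and do not tie libraries to separate animals, and the spread behind each p-value may therefore be technical. In such bulk RNA, fewer cells of a type and less RNA per cell cannot be told apart. The comparison bears on how engagement of GITR alters the adhesion genes of activated ILC2.

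Values are FPKM, a level per length of transcript, so genes can be compared with each other. Depth, estimated from the steps between low values, was 18800000 to 20700000 fragments. All 17 defining ILC2 genes passed the filter, with Gata3 between 165.8 and 192.7 FPKM in DTA-1 libraries and between 117.6 and 211.9 FPKM in isotype libraries, and Il1rl1 between 173.6 and 191.5 FPKM in DTA-1 libraries and between 204 and 309.6 FPKM in isotype libraries. None of the 17 passed the threshold. Groups did not overlap for 4 of them (23.5%, near the 21.6% of all genes tested). Of these, Il13 was higher with DTA-1 (log2 fold change 1.23), and Klrg1 (-1.73), Arg1 (-0.45) and Il1rl1 (-0.46) were lower. Tnfrsf18, the gene of GITR, stood at 203 ± 46.8 FPKM with DTA-1 and 170.5 ± 27.8 FPKM with the isotype. Libraries differed in cell cycle genes: the summed level of 20 mitosis genes ran from 301.7 to 405.2 FPKM with DTA-1 and from 499.2 to 1130 FPKM with the isotype, with isotype replicate 1 the highest. The summed level of 10 NF-kB target genes ran from 818 to 1082 FPKM with DTA-1 and from 531 to 625 FPKM with the isotype, with DTA-1 replicate 1 the highest. The part of either in the adhesion results was not tested. Of the tested adhesion genes, 20 of 29 had DTA-1 replicate 1 as the DTA-1 library farthest from the median of its group. In the isotype group, isotype replicate 2 was farthest for 13 of 29, and isotype replicates 1 and 3 for 8 each. These counts were not made over all genes, so they are not particular to the adhesion genes.

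Of the 34 genes, 29 passed the filter of 1 FPKM in at least 3 libraries and were tested with limma on log2(FPKM + 1). None passed an adjusted p of 0.05 over all 10501 genes tested, where 0.0381% of genes did (0.0286% higher and 0.00952% lower). At an unadjusted p under 0.05 in the same limma fit, 6 were higher and 5 lower with DTA-1, against 6.22% and 7.73% of all genes tested. The 6 higher ones are those named next as free of overlap. The 5 lower ones were Epcam, Cd48, Itgb7, Spn and Itga6, not Itgb3. Every DTA-1 library lay above every isotype library for 6 genes, Icam1, Itgb1, Vcl, Cd82, Cd44 and Itgav, and below every isotype library for 5 genes, Epcam, Cd48, Itgb7, Spn and Itgb3. Together these made up 37.9% of the tested adhesion genes, against 21.6% of all genes tested (11.2% higher and 10.5% lower). The median log2 fold change of the 29 genes was -0.02, against 0.01 over all genes tested, so the genes as a list had no common direction. These shares and medians are descriptions, because the filter acts on the values that are compared.

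**Figure D1:**
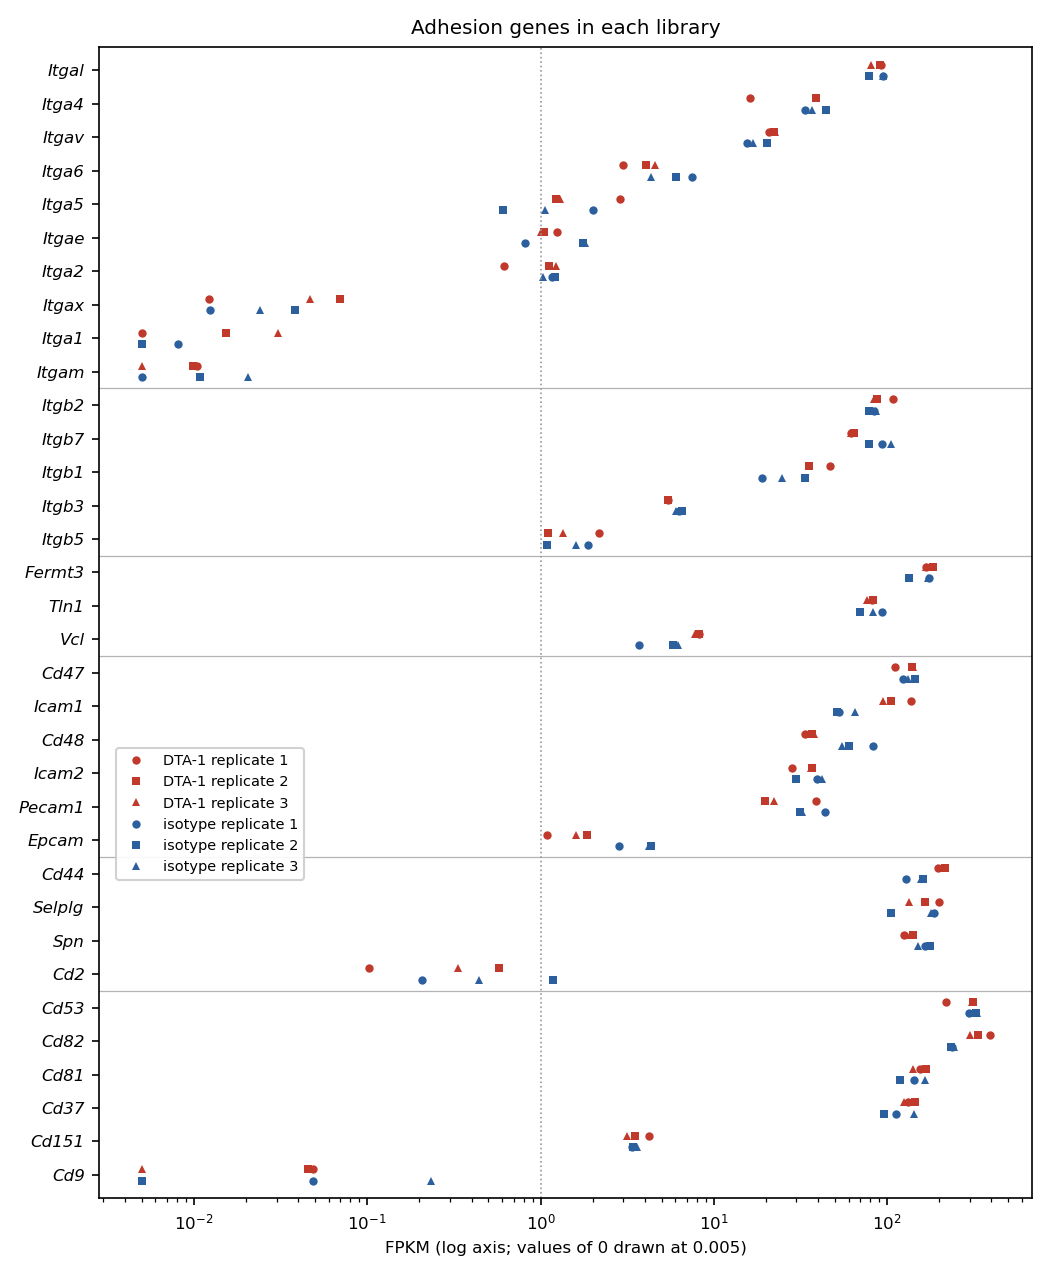
The level of each of the 34 adhesion genes in each library is plotted in FPKM on a log axis. Genes are grouped by role (alpha chains, beta chains, activators or adaptors, ligands and counter-receptors, other receptors, tetraspanins). DTA-1 libraries are in red above isotype libraries in blue, with replicates 1, 2 and 3 as circles, squares and triangles. The dotted line marks 1 FPKM; Itgax, Itga1, Itgam and Cd9 lie well to its left in all 6 libraries, and 20 genes lie at 10 FPKM or more in every library.

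Among the alpha chains, Itgal, Itga4 and Itgav held most of the transcript and Itgal alone more than the rest together. Itgal encodes the alpha chain of LFA-1, the leukocyte receptor for ICAM proteins. It measured 92.3, 91.1 and 80.7 FPKM in DTA-1 replicates 1, 2 and 3, against 94.3, 78.5 and 95.3 FPKM in isotype replicates 1, 2 and 3. The groups overlapped fully, and the log2 fold change was -0.02 ± 0.12 (SE; limma adjusted p = 0.963). On average Itgal took up 59.4 ± 7.20% of the summed alpha chain level with DTA-1 and 57.5 ± 5.39% with the isotype (SD, n = 3 each).

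The other alpha chains that pair with the same beta chain were near the floor. Itgam, the alpha chain of the myeloid integrin Mac-1, was listed at 0.0104, 0.00994 and 0 FPKM with DTA-1 and at 0, 0.0108 and 0.0205 FPKM with the isotype. Itgax, whose protein CD11c marks dendritic cells, was listed between 0.0122 and 0.0699 FPKM with DTA-1 and between 0.0123 and 0.0381 FPKM with the isotype. Neither was tested. Both lie on chromosome 7 like Itgal, and so does Spn; on GRCm38, the assembly of mm10, GENCODE places Spn at 127132232 to 127137823, Itgal at 127296260 to 127335138, Itgam at 128062640 to 128118491 and Itgax at 128129547 to 128150657. Of the summed level of these 3 alpha chains, Itgal held 99.94 ± 0.0316% with DTA-1 and 99.96 ± 0.0252% with the isotype.

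Itga4 encodes the alpha chain shared by VLA-4, which binds VCAM-1 and fibronectin, and by the mucosal homing receptor alpha4beta7. It measured 16.1, 39.0 and 38.9 FPKM in DTA-1 replicates 1, 2 and 3, against 33.8, 44.7 and 37.1 FPKM in the isotype replicates. DTA-1 replicate 1 lay under all other libraries, while the other DTA-1 libraries lay within the isotype range. The log2 fold change of -0.38 ± 0.31 (limma adjusted p = 0.662) rested on that library, since it was 0.03 without it. Itgae, which encodes the alpha chain that binds E-cadherin together with beta7, measured 1.25, 1.04 and 1.005 FPKM with DTA-1, against 0.818, 1.75 and 1.80 FPKM with the isotype, with overlap (log2 fold change -0.20 ± 0.19, limma adjusted p = 0.711). Of the partners of beta7, Itga4 thus held 95.9 ± 2.67% with DTA-1 and 96.4 ± 1.14% with the isotype of the level of both.

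Itgav, which encodes the alpha chain of the receptors for vitronectin and latent TGF-beta, measured 20.7, 22.2 and 22.7 FPKM in DTA-1 replicates 1, 2 and 3, against 15.5, 20.2 and 16.9 FPKM in the isotype replicates. The groups did not overlap, but the lowest DTA-1 and the highest isotype library lay close together. The log2 fold change was 0.31 ± 0.13 and did not pass (limma adjusted p = 0.334). Itga6, which encodes an alpha chain of laminin receptors, measured 2.99, 4.09 and 4.56 FPKM with DTA-1, against 7.5, 6.01 and 4.32 FPKM with the isotype. The groups crossed over only at DTA-1 replicate 3 and isotype replicate 3, and the log2 fold change was -0.50 ± 0.20 (limma adjusted p = 0.327). Itga5, which encodes the alpha chain of the fibronectin receptor, measured 2.89, 1.23 and 1.29 FPKM with DTA-1, against 2.02, 0.606 and 1.06 FPKM with the isotype. Itga2, a collagen receptor chain, measured 0.614, 1.12 and 1.23 FPKM with DTA-1, against 1.16, 1.21 and 1.03 FPKM with the isotype. The groups overlapped for both. Itga1, another collagen receptor chain, was listed at 0 in 1 DTA-1 library and 2 isotype libraries and at no more than 0.0307 FPKM in the others.

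No beta chain passed the threshold. Itgb7 was lower in every DTA-1 library, Itgb1 was higher in every DTA-1 library, and the sum of the 5 beta chains was close in both, at 202 ± 19.4 FPKM with DTA-1 and 208.5 ± 13.0 FPKM with the isotype. Itgb7, the beta chain of the gut homing receptor, measured 61.5, 64.7 and 61.8 FPKM in DTA-1 replicates 1, 2 and 3, against 93.0, 78.4 and 104.7 FPKM in the isotype replicates. The DTA-1 libraries lay within a narrow band under the isotype libraries. On the log2 scale the fold change was -0.54 ± 0.13 (limma adjusted p = 0.140), and leaving out single libraries gave -0.65 to -0.44.

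Itgb1, the beta chain of the VLA family and the partner of most matrix-binding alpha chains, measured 46.7, 35.5 and 35.5 FPKM in DTA-1 replicates 1, 2 and 3, against 19.0, 33.4 and 24.7 FPKM in the isotype replicates. Isotype replicate 2 came close to the DTA-1 libraries and isotype replicate 1 lay lowest. The log2 fold change was 0.62 ± 0.21 (limma adjusted p = 0.236). It was 0.82 without isotype replicate 2, 0.42 without isotype replicate 1 and 0.29 without both libraries numbered 1, so its size depended on these libraries.

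Within each library, the ratio of Itgb7 to Itgb1 was 1.32, 1.82 and 1.74 in DTA-1 replicates 1, 2 and 3, against 4.90, 2.35 and 4.23 in the isotype replicates. Every DTA-1 library had the smaller ratio. The log2 ratio was 0.69 ± 0.25 with DTA-1 and 1.87 ± 0.56 with the isotype (SD, n = 3 each), a difference of -1.18. Since both chains were already free of overlap, in opposite directions, the order of the ratios follows from them. A planned exact permutation test of the log2 ratio gave its smallest possible 2-sided p, 0.1, and so adds nothing beyond that order. As shares of the summed beta chain level, Itgb7 held 31.2 ± 3.29% with DTA-1 and 44.0 ± 3.94% with the isotype, and Itgb1 held 19.3 ± 1.33% with DTA-1 and 12.4 ± 3.94% with the isotype.

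**Figure D2:**
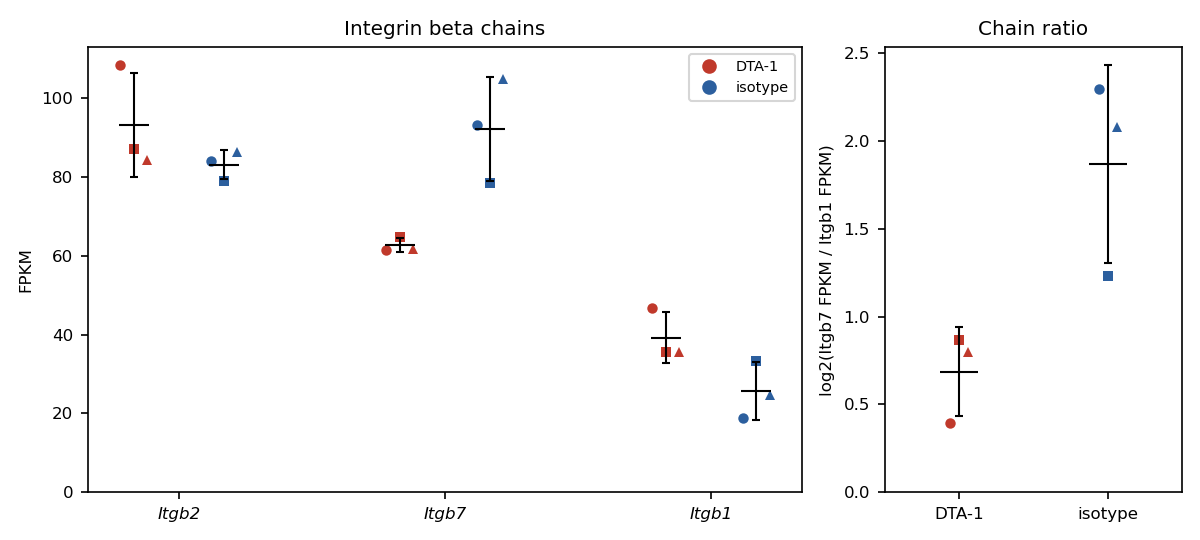
The left panel plots FPKM of Itgb2, Itgb7 and Itgb1 in each library, and the right panel the log2 ratio of Itgb7 to Itgb1, with DTA-1 in red, isotype in blue, replicates 1, 2 and 3 as circles, squares and triangles, and the mean ± SD in black. The DTA-1 libraries lie under the isotype libraries for Itgb7 and above them for Itgb1, and their log2 ratios average 0.69, against 1.87 in the isotype libraries.

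Because these chains differed in opposite directions, the stretch from 250 bases before to 50 bases after the RefSeq start of each is shown (GRCm38.p6), Itgb7 at chr15:102231886-102232185 on the minus strand and Itgb1 at chr8:128685404-128685703 on the plus strand. Of the motifs marked here on both strands, kappaB (GGAANNTCC), AP-1 (TGANTCA), STAT (TTCNNNGAA) and the TATA box (as TATAAA), neither entry holds one, so no base is in capitals. A looser kappaB pattern (GGG and CC with any 5 bases between them) and the GC box (GGGCGG) were also searched and then not marked, because 50.8% and 35.7% of all 32851 entries hold them. Itgb7 is among the 16 adhesion genes that hold the looser kappaB pattern and Itgb1 among the 17 that hold the GC box, of 25 with an entry. These counts are by gene, and some genes have several entries, so they are not directly comparable with the shares of entries.
Itgb7: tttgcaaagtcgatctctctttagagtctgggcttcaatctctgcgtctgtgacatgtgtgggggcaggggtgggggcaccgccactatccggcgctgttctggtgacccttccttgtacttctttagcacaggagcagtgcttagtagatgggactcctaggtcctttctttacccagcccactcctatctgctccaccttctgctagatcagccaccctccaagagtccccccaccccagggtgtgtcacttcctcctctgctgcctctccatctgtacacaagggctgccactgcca
Itgb1: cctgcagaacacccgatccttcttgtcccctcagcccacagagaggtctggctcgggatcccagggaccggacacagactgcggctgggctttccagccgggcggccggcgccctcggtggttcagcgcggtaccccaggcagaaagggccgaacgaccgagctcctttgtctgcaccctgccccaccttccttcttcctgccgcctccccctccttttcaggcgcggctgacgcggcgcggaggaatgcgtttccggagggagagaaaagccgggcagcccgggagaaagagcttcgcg

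Itgb2, the beta chain of LFA-1, was the most abundant beta chain on average in the DTA-1 libraries. It measured 108.3, 86.9 and 84.2 FPKM in DTA-1 replicates 1, 2 and 3, against 83.9, 78.9 and 86.1 FPKM in the isotype replicates. The groups overlapped, with DTA-1 replicate 1 above the rest (log2 fold change 0.16 ± 0.13, limma adjusted p = 0.662). Itgal and Itgb2, the chains of LFA-1, were of similar level, at 88.0 ± 6.40 and 93.1 ± 13.2 FPKM with DTA-1 and at 89.4 ± 9.40 and 83.0 ± 3.67 FPKM with the isotype. Itgb3, which pairs with Itgav in the vitronectin receptor, measured 5.45, 5.44 and 5.43 FPKM with DTA-1, against 6.30, 6.56 and 6.04 FPKM with the isotype. The groups did not overlap, though the log2 fold change was only -0.18 ± 0.11 (limma adjusted p = 0.532). Itgb5, another partner of Itgav, measured 2.18, 1.10 and 1.36 FPKM with DTA-1, against 1.88, 1.09 and 1.61 FPKM with the isotype, with overlap.

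Of the genes for proteins that act on integrin tails or link them to actin, the abundant ones overlapped between groups. Vcl was higher in every DTA-1 library. Fermt3, which encodes kindlin-3, the kindlin of blood cells, measured 167.2, 182.8 and 168.6 FPKM in DTA-1 replicates 1, 2 and 3, against 173.5, 134.2 and 172.9 FPKM in the isotype replicates (log2 fold change 0.12 ± 0.13, limma adjusted p = 0.764). Tln1, which encodes talin, measured 81.4, 82.7 and 76.6 FPKM with DTA-1, against 93.8, 69.8 and 83.0 FPKM with the isotype (log2 fold change -0.03 ± 0.13, limma adjusted p = 0.956). The groups overlapped for both. Vcl encodes vinculin, which ties talin to actin under load. It measured 8.23, 8.19 and 7.75 FPKM in DTA-1 replicates 1, 2 and 3, against 3.70, 5.81 and 6.21 FPKM in the isotype replicates. The DTA-1 libraries lay close together above all isotype libraries, and isotype replicate 1 was the lowest. Its log2 fold change, 0.56 ± 0.17, did not pass (limma adjusted p = 0.207) and was 0.37 without isotype replicate 1.

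Among ligands and counter-receptors, Icam1 showed the largest positive difference of all 29 tested adhesion genes, and Epcam and Cd48 the largest negative ones. Icam1 encodes the ligand of LFA-1 and is a known NF-kB target. It measured 136.9, 105.0 and 94.9 FPKM in DTA-1 replicates 1, 2 and 3, against 52.6, 51.4 and 65.5 FPKM in the isotype replicates. Every DTA-1 library lay well above the highest isotype library, and the means were 112.3 ± 21.9 FPKM with DTA-1 and 56.5 ± 7.84 FPKM with the isotype, a ratio of 1.99. This gave a log2 fold change of 0.97 ± 0.17 with a limma adjusted p = 0.0817, and 0.82 to 1.08 when single libraries were dropped. Of the 10 NF-kB target genes, 9 lay higher with DTA-1 without overlap, against 11.2% of all genes tested, and their median log2 fold change was 0.69. None of them passed the threshold over all genes. That list was chosen with earlier results of these data known, so its share is a description. A link between these genes and the level of Icam1 was not tested.

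GENCODE places Icam1 on chromosome 9 at 21015985 to 21028817. The promoter entry of Icam1 (chr9:21015690-21015989, plus strand) is shown because it was one of 2 among the 25 adhesion genes with an entry in the RefSeq table that held the kappaB letters GGAANNTCC, which 4.26% of all 32851 entries hold. These letters were chosen with the known NF-kB site of Icam1 in mind, and the count is by gene while the share is by entry. The match lies at -153 to -145, counted from the RefSeq start. The same entry holds the STAT letters TTCNNNGAA at -42 to -34, found in 8.3% of all entries, and TATAAA at 14 to 19, found in 13.6%. The GENCODE start of Icam1 lies further along the entry than the RefSeq start, and all of these matches lie before it. The other entry with the kappaB letters is that of the tetraspanin gene Cd37 (chr7:45238790-45239089, minus strand), at -28 to -20. Capitals mark every match to the kappaB, AP-1, STAT and TATA letters, and a match is a description of the letters, not of binding.
Icam1: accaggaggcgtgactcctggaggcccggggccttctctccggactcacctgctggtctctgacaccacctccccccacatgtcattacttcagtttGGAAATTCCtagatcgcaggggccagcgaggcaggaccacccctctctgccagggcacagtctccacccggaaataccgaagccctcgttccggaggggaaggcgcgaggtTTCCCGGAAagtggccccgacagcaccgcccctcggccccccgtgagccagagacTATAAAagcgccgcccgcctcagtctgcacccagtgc
Cd37: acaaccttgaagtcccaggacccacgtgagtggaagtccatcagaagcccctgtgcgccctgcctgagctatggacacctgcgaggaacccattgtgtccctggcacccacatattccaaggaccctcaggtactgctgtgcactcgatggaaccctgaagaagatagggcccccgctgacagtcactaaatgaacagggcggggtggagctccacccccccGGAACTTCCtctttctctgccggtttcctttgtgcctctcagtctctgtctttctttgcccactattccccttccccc

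Icam2, a second ligand of LFA-1, measured 28.3, 36.9 and 36.2 FPKM in DTA-1 replicates 1, 2 and 3, against 39.6, 29.9 and 42.4 FPKM in the isotype replicates, so the groups overlapped. Cd47, whose protein gives macrophages a signal against uptake and also associates with integrins, measured 110.7, 139.9 and 141.6 FPKM with DTA-1, against 122.9, 145.5 and 132.2 FPKM with the isotype. The groups overlapped here too.

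Cd48, which encodes a lipid-anchored ligand of CD2 and CD244, measured 33.6, 36.7 and 38.0 FPKM in DTA-1 replicates 1, 2 and 3, against 82.4, 59.9 and 54.9 FPKM in the isotype replicates. The DTA-1 libraries formed a tight group under the isotype libraries, of which isotype replicate 1 was the highest. The means were 36.1 ± 2.27 FPKM with DTA-1 and 65.7 ± 14.6 FPKM with the isotype, and the log2 fold change was -0.83 ± 0.16 (limma adjusted p = 0.0996). It was -0.66 without isotype replicate 1. Cd2, the gene of its receptor in mice, was not tested, with 0.103, 0.575 and 0.334 FPKM with DTA-1 and 0.206, 1.18 and 0.443 FPKM with the isotype.

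Epcam encodes a homophilic adhesion protein of epithelia that some lymphocytes also carry. It measured 1.09, 1.85 and 1.61 FPKM in DTA-1 replicates 1, 2 and 3, against 2.84, 4.34 and 4.24 FPKM in the isotype replicates. No DTA-1 library reached the lowest isotype library. The log2 fold change was -0.93 ± 0.18 (limma adjusted p = 0.101), which understates the change of so low a gene, and the ratio of the means was 0.399. None of the 11 epithelial marker genes was tested. Their summed level ran from 0.561 to 1.27 FPKM with DTA-1 and from 0.855 to 1.84 FPKM with the isotype, under the level of Epcam alone in all 6 libraries. The most abundant was Ager, a gene of type 1 alveolar cells, at 0.485 ± 0.0698 FPKM with DTA-1 and 0.526 ± 0.221 FPKM with the isotype, and Krt8, Krt19, Sftpc and Sftpb were listed at 0 in most of them.

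Pecam1, which encodes a homophilic adhesion protein of endothelium and leukocytes, measured 38.7, 19.9 and 22.2 FPKM in DTA-1 replicates 1, 2 and 3, against 43.8, 31.5 and 32.3 FPKM in the isotype replicates. DTA-1 replicate 1 lay within the isotype range and the other DTA-1 libraries under it (log2 fold change -0.45 ± 0.25, limma adjusted p = 0.483). The difference was -0.73 without DTA-1 replicate 1. Of 9 endothelial marker genes, Eng alone was tested, at 42.9 ± 5.74 FPKM with DTA-1 and 36.0 ± 9.74 FPKM with the isotype, and Vwf, Tie1, Cldn5 and Emcn were listed at 0 in all 6 libraries. Platelets also carry Itgb3 and Pecam1; none of 8 platelet markers was tested, and their summed level ran from 0.660 to 0.876 FPKM with DTA-1 and from 0.408 to 1.08 FPKM with the isotype.

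The receptors Cd44, Selplg and Spn were among the most abundant adhesion genes. Cd44 encodes the receptor for hyaluronan and a marker of activated lymphocytes. It measured 196, 215.8 and 207.4 FPKM in DTA-1 replicates 1, 2 and 3, against 128, 161.9 and 157.3 FPKM in the isotype replicates. The groups were separate, with isotype replicate 1 the lowest. Its log2 fold change, 0.47 ± 0.12, did not pass (limma adjusted p = 0.157), and dropping single libraries gave 0.37 to 0.54. Spn, which encodes the large mucin CD43 that can both hinder and support cell contact, measured 125.5, 140.8 and 136.3 FPKM with DTA-1, against 165.2, 177.5 and 150.3 FPKM with the isotype. The groups did not overlap (log2 fold change -0.29 ± 0.11, limma adjusted p = 0.308). Selplg, which encodes the selectin ligand PSGL-1, measured 200.2, 164.7 and 133.1 FPKM with DTA-1, against 186.7, 105.5 and 180.2 FPKM with the isotype. Its spread within each group was wider than the difference between them (log2 fold change 0.10 ± 0.24, limma adjusted p = 0.895).

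Tetraspanins included the most abundant genes of all 34, and Cd82 was the one whose groups did not overlap. Cd82 encodes a tetraspanin that restrains integrin-driven movement. It measured 390.3, 335.5 and 301.2 FPKM in DTA-1 replicates 1, 2 and 3, against 235.8, 233.1 and 244.3 FPKM in the isotype replicates. The isotype libraries lay close together and every DTA-1 library above them. The means were 342.3 ± 45.0 FPKM with DTA-1 and 237.7 ± 5.88 FPKM with the isotype, and the log2 fold change was 0.52 ± 0.12 (limma adjusted p = 0.140), or 0.42 to 0.60 when single libraries were dropped.

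Cd53, a tetraspanin gene of leukocytes, measured 219.4, 311.6 and 308.6 FPKM in DTA-1 replicates 1, 2 and 3, against 298.6, 325.3 and 328.1 FPKM in the isotype replicates. DTA-1 replicate 1 alone stood apart. Cd81, which encodes a tetraspanin that associates with integrins, measured 155.1, 167.2 and 140.2 FPKM with DTA-1, against 143.4, 118.1 and 164.9 FPKM with the isotype (log2 fold change 0.13 ± 0.15, limma adjusted p = 0.777). Cd37, a further tetraspanin gene of leukocytes, measured 132.2, 145.2 and 124.5 FPKM with DTA-1, against 112.1, 96.5 and 143.6 FPKM with the isotype. Its groups overlapped, and its promoter entry is the other one with the kappaB letters. Cd151, which encodes the partner of laminin-binding integrins, measured 4.22, 3.51 and 3.14 FPKM with DTA-1, against 3.39, 3.41 and 3.63 FPKM with the isotype. Cd9 was near the floor, at 0.0489, 0.0456 and 0 FPKM with DTA-1 and 0.0489, 0 and 0.234 FPKM with the isotype, and was not tested.

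**Figure D3:**
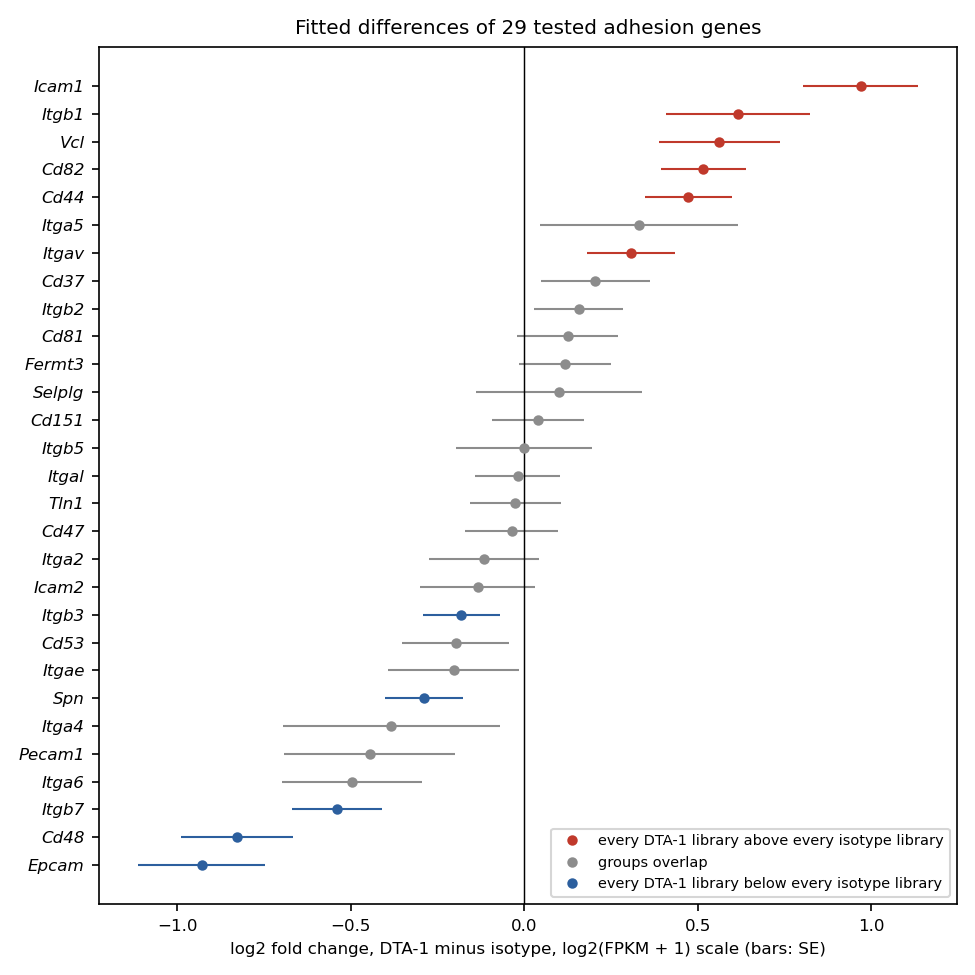
Fitted log2 fold changes (DTA-1 minus isotype, log2(FPKM + 1) scale, bars SE) are plotted for the 29 tested adhesion genes, in red where every DTA-1 library lay above every isotype library, blue where every one lay below, and grey where the groups overlapped. They run from -0.93 for Epcam to 0.97 for Icam1, with 6 genes in red and 5 in blue, and none passed an adjusted p of 0.05.

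**Figure D4:**
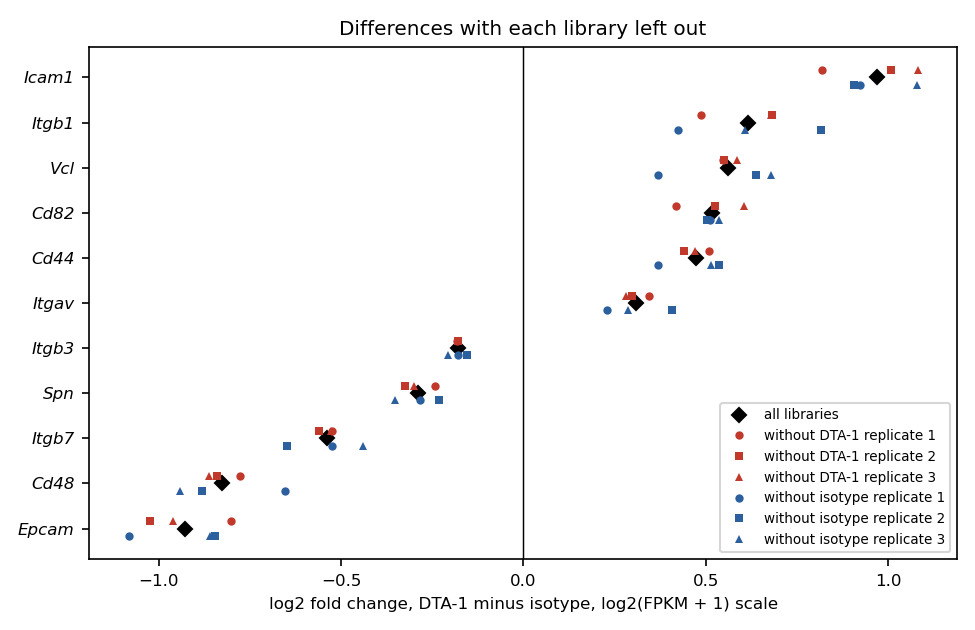
For the 11 genes whose groups did not overlap, the log2 fold change is plotted with all libraries (black diamonds) and with each library left out in turn (red for DTA-1 libraries, blue for isotype libraries, shapes by replicate number). No value crosses 0; Icam1 runs from 0.82 to 1.08 and Itgb1, with the widest spread among the higher genes, from 0.42 to 0.82.

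Around these genes, 5 lists of related adhesion genes were examined, and no gene of any of them passed the threshold over all genes. Of 42 tested genes of integrin signalling and activation, 9 had an unadjusted limma p under 0.05, all of them lower with DTA-1, against 7.73% of all genes tested. In the same list 2 genes lay higher and 12 lower without overlap (33.3%, against 21.6% of all genes tested), with a list median of -0.01. Skap1, which encodes an adaptor that carries Rap1 to integrins in T cells, measured 37.6, 36.8 and 34.8 FPKM in DTA-1 replicates 1, 2 and 3, against 53.1, 55.9 and 46.0 FPKM in the isotype replicates (log2 fold change -0.49 ± 0.12, limma adjusted p = 0.140). Rapgef2, an exchange factor gene for Rap proteins, stood at 4.10 ± 0.347 FPKM with DTA-1 and 6.10 ± 0.325 FPKM with the isotype. Rasa3, which encodes a protein that switches Rap1 off, stood at 2.85 ± 0.585 FPKM with DTA-1 and 5.10 ± 1.05 FPKM with the isotype. The groups did not overlap for these 3 genes, which include both a positive and a negative regulator of Rap proteins. The most abundant members overlapped between groups: Rap1b, which encodes the main Rap1 protein of blood cells, at 292.4 ± 18.1 FPKM with DTA-1 and 265.6 ± 26.3 FPKM with the isotype, and Msn, which encodes the membrane-to-actin linker moesin, at 267.6 ± 8.38 FPKM with DTA-1 and 247.5 ± 10.5 FPKM with the isotype.

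Of 36 further adhesion ligands and counter-receptors in the files, 15 were tested, and 2 higher and 2 lower ones had groups without overlap (26.7%, near the 21.6% of all genes tested), with a list median of 0.00 on the log2 scale. Vcam1, the gene of the ligand of VLA-4, measured 3.64, 1.10 and 1.73 FPKM in DTA-1 replicates 1, 2 and 3, against 0.206, 0.670 and 0.432 FPKM in the isotype replicates. It lay higher in every DTA-1 library, at a low level (log2 fold change 1.07 ± 0.28, limma adjusted p = 0.157). Only its DTA-1 libraries reached the 1 FPKM of the filter, so at these isotype levels it was tested only because it was higher with DTA-1. Its order, fold change and p are therefore descriptions, and it is among the 2 higher genes counted above. Tigit, which encodes an inhibitory receptor for nectin-like ligands, measured 15.7, 24.5 and 25.9 FPKM with DTA-1, against 46.4, 38.7 and 44.9 FPKM with the isotype (log2 fold change -0.97 ± 0.19, limma adjusted p = 0.0996). Every DTA-1 library lay under the isotype libraries, DTA-1 replicate 1 lowest. Cd226, which encodes an activating receptor for the same ligands and was named after its values were seen, measured 35.7, 27.9 and 29.1 FPKM with DTA-1, against 7.63, 24.5 and 18.8 FPKM with the isotype. Its groups did not overlap, and isotype replicate 1 was the lowest. The most abundant genes of this list were the glycoprotein gene Thy1, at 72.2 ± 31.0 FPKM with DTA-1 and 64.7 ± 20.2 FPKM with the isotype, and the syndecan gene Sdc4, at 44.3 ± 10.9 FPKM with DTA-1 and 29.6 ± 11.4 FPKM with the isotype, and both overlapped between groups.

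Of 25 further tetraspanins, 11 were tested, with 1 higher and 1 lower gene free of overlap (18.2%, against 21.6% of all genes tested) and a median of -0.16. The most abundant were Tspan31, at 67.2 ± 5.89 FPKM with DTA-1 and 56.0 ± 5.94 FPKM with the isotype, and Tspan13, at 47.7 ± 3.11 FPKM with DTA-1 and 51.6 ± 4.56 FPKM with the isotype. Rom1 stood at 5.10 ± 0.695 FPKM with DTA-1 and 6.23 ± 0.260 FPKM with the isotype, and Tspan4 at 5.25 ± 0.702 FPKM with DTA-1 and 10.1 ± 5.95 FPKM with the isotype. None reached Cd37, the least abundant of the 4 leading tetraspanins among the 34 genes. Of 14 genes for tetraspanin partners, 8 were tested and none was free of overlap (median -0.15); the proteases Adam10 and Adam17 averaged 25.4 ± 1.59 and 29.3 ± 0.841 FPKM with DTA-1 and 30.9 ± 5.83 and 26.1 ± 3.69 FPKM with the isotype. Of 13 further integrin chains, Itga3 alone was tested, at 1.18 ± 0.171 FPKM with DTA-1 and 0.959 ± 0.253 FPKM with the isotype.

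Of the markers of other cells, Eng from the endothelial list was the most abundant, at the levels given beside Pecam1. Of 12 T cell markers 4 were tested, and Lat led at 23.7 ± 1.93 FPKM with DTA-1 and 24.6 ± 5.30 FPKM with the isotype. Bcl11b, which is also on the ILC2 list, and Cd247 overlapped between groups too. Cd3g measured 9.13, 7.83 and 7.07 FPKM with DTA-1, against 9.52, 10.2 and 9.35 FPKM with the isotype, lower in every DTA-1 library (log2 fold change -0.25 ± 0.13, limma adjusted p = 0.441), while Cd4, Cd8a and Cd5 were at 0.0615 FPKM or less in every library. Cd79b, for B cells, stood at 4.32 ± 1.88 FPKM with DTA-1 and 4.66 ± 2.12 FPKM with the isotype. Gzmb, for NK cells, stood at 1.06 ± 0.766 FPKM with DTA-1 and 3.53 ± 0.751 FPKM with the isotype without overlap, and Cd68, for myeloid cells, at 2.51 ± 0.0966 FPKM with DTA-1 and 3.39 ± 0.899 FPKM with the isotype. None of 9 fibroblast markers (Lum highest) or 10 granulocyte and mast cell markers (Mcpt8 highest) was tested. The part of these cells in the results was not tested.

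The plot by gene list sets the spread of the adhesion genes beside these lists.

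**Figure D5:**
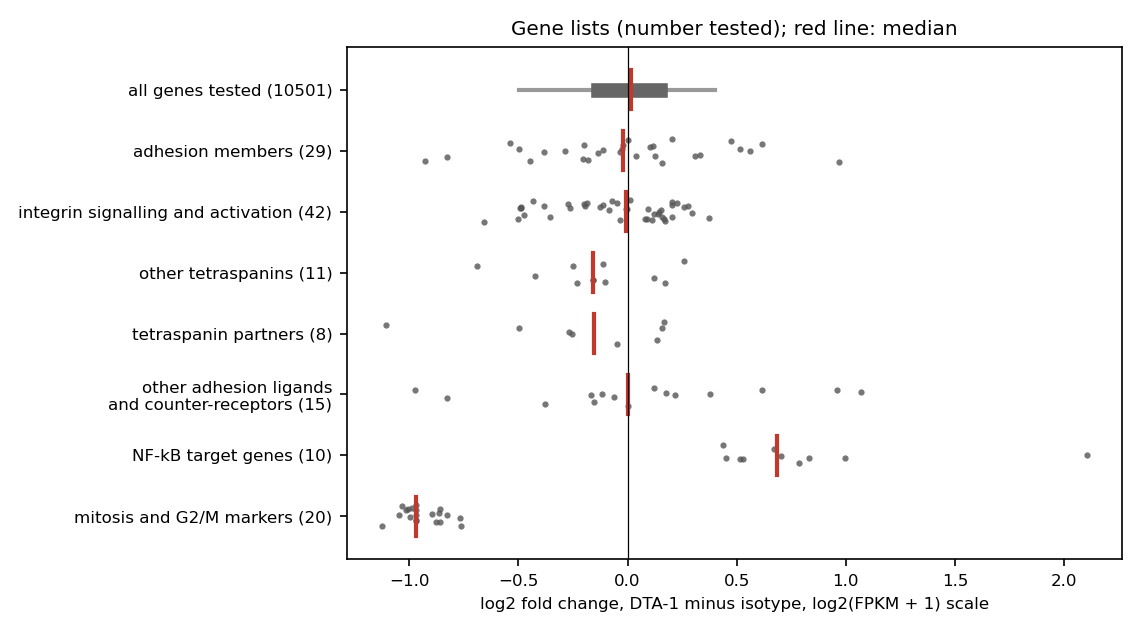
Fitted log2 fold changes (DTA-1 minus isotype, log2(FPKM + 1) scale) are plotted for the tested genes of each list, 1 point per gene with vertical jitter, beside all genes tested (thick bar, 25th to 75th percentile; thin bar, 5th to 95th percentile), with the median in red. The adhesion genes spread to both sides of 0 with a median of -0.02, whereas the NF-kB target genes have a median of 0.69 and the mitosis genes one of -0.97.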

How the data were processed

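The authors deposited a table of gene levels for each library. The deposited values name no unit and were read as FPKM, normalized by the authors per transcript length and per library: they hold fractions, sum to between 574195 and 606724 per library, and have low-end steps that shrink as transcripts get longer. Per the submitters' processing notes, TopHat and mm10 were used. The counting program, its annotation and its use of strand (not given in the sources used here) are unknown, so reads of overlapping genes cannot be told apart. Among the 34 genes, Itga4, Itgae, Cd37, Fermt3, Tln1 and Vcl overlap a protein-coding gene on the other strand (GENCODE M21). Itga1 and Itgam, which were not tested, overlap protein-coding genes on the same strand.

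Titles gave the groups and replicate numbers; treatment tags, numbered otherwise in replicates 2 and 3, were not used. Genes were tested with limma (3.58.1, R 4.3.3) on log2(FPKM + 1). This covered the 10501 genes that reached 1 FPKM in 3 or more libraries. Settings were empirical Bayes with trend and robust, 2-sided, Benjamini-Hochberg over all genes and a threshold of 0.05. A count test was planned only in case the values were counts, which they are not. Fold changes on this scale understate those of low genes. The procedure was tested on simulated data. Depth came from the smallest steps of genes with a single GENCODE transcript of at least 1000 bases. Libraries of a group differed by 11.3 to 97.3 times counting noise, so none was a copy of another.

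The 34 genes and all lists were chosen with earlier results of these data known. Fold changes are given for genes without overlap, for a fixed set central to lymphocytes and for Itga6, added after its values were seen. From the related lists the 3 smallest p and the 2 most abundant genes were named. Where other genes are named, they were chosen after their values were seen. Promoters came from RefSeq (GRCm38.p6; 25 of 34 genes matched). Python 3.11.15 and matplotlib 3.10.9 drew the figures. Alternatives covered the pseudocount, filter, scaling, moderation, a replicate block and leaving out libraries.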

Additional observations from a re-analysis of the deposited data

How the results depend on the processing

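Results were recomputed with a pseudocount of 0.1 FPKM, a minimum mean of 5 FPKM, no filter, 2 scalings between libraries, plain moderation, a replicate block and each library left out; leaving out isotype replicate 1 and DTA-1 replicate 1 together was added after seeing the data. All 11 genes without overlap kept their sign in each, except that Epcam has no value with the 5 FPKM minimum. With each library left out, 6 to 8 adhesion genes were higher without overlap and 5 to 8 lower, 8 without isotype replicate 2; with both replicates 1 left out, 8 were lower. Fewer libraries overlap less by construction (35.2% and 40.7% of all genes). The median log2 fold change ran from -0.11 to 0.042, and over all genes 1 to 3 were higher and 1 was lower. The higher count was 1 with no filter and 6 with both replicates 1 left out, and 2 genes were lower with libraries scaled to equal totals. Genes near 0 changed sign with 1 library left out: Itgal (-0.11 to 0.042), Tln1 (-0.14 to 0.073, and 0.063 with both replicates 1 left out), Selplg (-0.16 to 0.25) and Fermt3 (-0.0038 to 0.18). Itga4, at -0.38 with all libraries, ran from -0.59 to 0.025 and changed sign only without DTA-1 replicate 1.

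Over all genes, the libraries numbered 1 deviated together (correlation 0.393), while those numbered 2 (-0.101) and 3 (-0.129) did not. The numbers therefore do not pair the libraries throughout. Across numbers, the correlation was 0.485 for DTA-1 replicate 3 with isotype replicate 2 and 0.385 for DTA-1 replicate 2 with isotype replicate 3. The fit with a replicate block called 59 genes higher and 126 lower, among them 1 adhesion gene higher (Icam1, limma adjusted p = 0.0420) and 2 lower (Epcam, 0.0332, and Cd48, 0.0498). Over all alternatives, the adjusted p ran from 0.0420 to 0.249 for Icam1, from 0.0332 to 0.283 for Epcam and from 0.0498 to 0.297 for Cd48. The cause was not tested. With 3 libraries a group, small differences could not be resolved, and genes near 1 FPKM rest on few fragments.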

Other observations

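Cd48 lies in the cluster of SLAM family genes on chromosome 1 (GRCm38, GENCODE), at 171682009 to 171705258, with Ly9 at 171588624 to 171607410 and Slamf6 at 171917515 to 171953170. Ly9, which encodes a homophilic receptor of this family, measured 4.56, 5.99 and 5.78 FPKM in DTA-1 replicates 1, 2 and 3, against 14.3, 9.27 and 8.35 FPKM in isotype replicates 1, 2 and 3. As with Cd48, every DTA-1 library lay under every isotype library and isotype replicate 1 was the highest (log2 fold change -0.83 ± 0.20, limma adjusted p = 0.140). Slamf6, another homophilic receptor, overlapped between groups at 1.19 ± 0.186 FPKM with DTA-1 and 0.946 ± 0.280 FPKM with the isotype. Slamf1, Slamf7 and Cd244 were listed under 0.11 FPKM in every library. Cd48 and Ly9 share the libraries and the isotype replicate 1 excess, so their likeness is a description.

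Interferon-induced transmembrane genes, which were on the list of tetraspanin partners, differed more within the isotype group than between groups. Ifitm1 measured 33.2, 15.9 and 17.4 FPKM in DTA-1 replicates 1, 2 and 3, against 163.3, 24.0 and 24.7 FPKM in the isotype replicates. Ifitm3 measured 191.8, 107.8 and 103.4 FPKM with DTA-1, against 396.2, 112.8 and 135.7 FPKM with the isotype. Ifitm2 measured 118.5, 75.8 and 63.4 FPKM with DTA-1, against 224.4, 55.3 and 80.2 FPKM with the isotype. In both groups and all 3 genes the library numbered 1 was the highest, and none of the 8 tested partners passed the threshold or had groups without overlap.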
